A study of Drosophila melanogaster with 48 samples.

Results

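The regions described here are 855 places in the genome of larval Drosophila brains where the transcription factor Zelda (Zld) was called bound in 1 of 2 conditions and that lie away from the ends of genes. They are the peaks of the authors' list titled brat that share no base with any peak of the list titled UAS-HA-Zld and whose midpoint lies more than 500 bp from every annotated gene end. The arms covered are 2L, 2R, 3L, 3R and X. They were chosen by the peak calls themselves, so their presence in one list and absence from the other is no finding. The brat list held 7507 peaks on these arms, so the 855 are 11.4% of them, and they are 20.2% of its 4229 peaks away from gene ends. They are called brat-only here in the sense that no peak of the other list touches them. The other brat peaks serve as comparison: 755 brat-only peaks at gene ends, 3374 shared peaks away from gene ends and 2523 shared peaks at gene ends. From the UAS-HA-Zld list, 2315 peaks away from gene ends that no brat peak touches are the mirror class. Of all 7507 brat peaks, 1610 were brat-only, which is 21.4%.

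The series holds 48 CUT&RUN samples, 42 from S2 cells and 6 from larval brains, and 4 of the brain samples, 2 titled UAS-HA-Zld and 2 titled brat, were profiled for Zld and gave the lists. In CUT&RUN a nuclease brought in by the antibody releases the DNA next to the protein, and the fragments pile up where the protein sat. In the UAS-HA-Zld samples the genotype label gives the mutant allele brat11 over a deficiency (DF), the temperature-sensitive Gal4 inhibitor Tub-Gal80ts, and the transgene UAS-HA-Zld, which codes for HA-tagged Zld, under the neuroblast driver WorGal4. The brat samples carry the same genotype label, so that only the titles set the conditions apart, and all animals carry the brat mutation by that label. Larvae were at stage L3, had been reared at 18°C and were kept at 33°C for 24 h. Each reaction used 50 pooled brains. The label gives type II neuroblasts as the cell type, which peak lists cannot check, and whole brains hold other cells too. With a single list for each condition and none for its replicates, the spread between replicates is unknown, and no test was run. The remaining samples were not analysed here.

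Zld is a zinc-finger pioneer factor, known for opening chromatin when the embryo starts to transcribe its own genome. In the larval brain it is found in type II neuroblasts, stem cells that divide through intermediate progenitors, and it is lost as the progeny start to differentiate. Loss of Brat, a translational repressor inherited by the differentiating daughter cell, makes type II neuroblasts accumulate. Sites inside introns or between genes, away from gene ends, are where many fly enhancers lie.

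Whether a peak is truly missing from the UAS-HA-Zld condition depends on the completeness of that list. Its peaks carry running numbers up to 11256, and 2191 of these numbers (19.5%) are absent from the list as analysed here. The brat list lacks 1846 of 9490 (19.5%). Around 511 of the 855 peaks, the UAS-HA-Zld numbers skip at least 1 value from one flanking peak to the next, so that a called peak could have lain there. The other 344 lie in stretches of the UAS-HA-Zld list with no number absent, and these are called fully bracketed in what follows. The share with an absent number was 59.8% (Wilson 95% interval 56.4 to 63.0; all such intervals cover counting error only). It was 63.0% for brat-only peaks at gene ends, and 45.6% of the length between UAS-HA-Zld peaks on these arms lies in stretches with an absent number. By −log10 q it was 50.5% under 5, 50.6% at 5 to 10, 61.4% at 10 to 20, 65.8% at 20 to 40, 58.7% at 40 to 80 (interval 48.5 to 68.2) and 74.6% for the 71 peaks at 80 or above (63.4 to 83.3). The rise was thus not even, and the interval at 40 to 80 overlaps those of the weakest peaks. Most results below are therefore given for all 855 peaks and for the 344.

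The brat-only peaks away from gene ends were weaker and narrower than the shared peaks at like places. Fold enrichment, the authors' ratio of the pileup at the summit to the local background, had a median of 2.76 (quartiles 2.18 and 3.73), against 4.24 (2.84 and 7.37) for shared peaks away from gene ends. The fully bracketed peaks had a median of 2.60. The fragments piled up at the summit numbered a median of 95 (quartiles 76 and 129), against 198 for the shared peaks. Width had a median of 385 bp (range 193 to 2353), against 632.5 bp. More than 1 summit was found in 29.7% of them, against 46.3% of shared peaks away from gene ends. Because the same list's calls chose these peaks, the values are a description with no test. With the brat list cut by −log10 q into 5 parts of equal size, the weakest part held 399 of the 855, the next 247, then 129, 57 and 23. Of the fully bracketed peaks, the weakest part held 192 and the strongest 3.

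**Figure D1:**
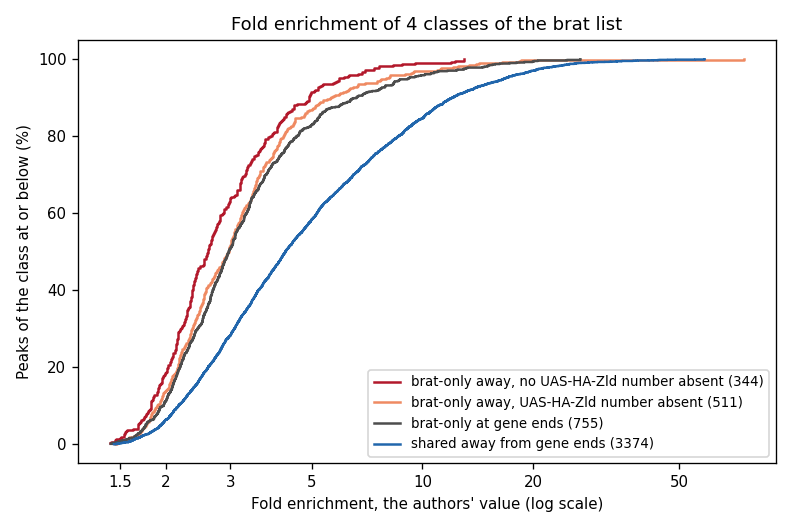
Cumulative share of peaks (vertical axis, percent) by the authors' fold enrichment (horizontal axis, log scale) in 4 classes of the brat list, with the number of peaks in brackets. The curve of the 344 fully bracketed peaks lies furthest left with a median of 2.60, and that of the 3374 shared peaks furthest right with a median of 4.24.

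Among the members themselves, values were alike inside and outside genes. The median fold was 2.80 for the 612 inside protein-coding genes, 2.73 for the 15 inside noncoding genes only and 2.75 for the 228 outside genes. Peaks with several summits had a median fold of 3.11 and a median width of 597.5 bp, against 2.60 and 322 bp for those with 1 summit. Only 18 of the 855 reached a fold of 10, and 3 of these 18 were fully bracketed.

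The strongest of all, by −log10 q, lay inside pk, 36.2 kb from the nearer end of that gene and 1909 bp from the nearest annotated gene end of any kind. It covers 2R, 7186809 to 7187606 (dm6, as all coordinates here, counted from 1). The gene encodes the planar cell polarity protein Prickle. Its summit held 2968 fragments over a background of 38.5, a fold of 75.2, which ranks it 7th in the brat list on these arms. The UAS-HA-Zld list has 2 absent numbers around it, and its nearest peak lies 13.8 kb away. The next by −log10 q was inside Svil, which encodes the actin-binding protein supervillin (3L, 2387414 to 2388395), with 761 fragments and a fold of 18.3. The 20 strongest had folds of 4.38 to 75.2, and 17 of the 20 had an absent UAS-HA-Zld number around them.

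The other strong peaks are given by what their genes are known for, which is a way to order them and no theme. CkIIalpha, the catalytic subunit of casein kinase 2, held one with 437 fragments and a fold of 18.6. Utx, a demethylase of histone H3 lysine residues, held one with 387 fragments and a fold of 16.4. The casein kinase 1 family gene gish held one with 378 fragments, and stet, a rhomboid-family protease gene, one with 353. All 4 had 1 or more absent numbers, with 1 at CkIIalpha, 5 at Utx, 3 at gish and 2 at stet.

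Further peaks of the 20 lay in mthl14 of the methuselah-like receptors (fold 14.3), the lipophorin receptor gene LpR2 (13.4), the acetylcholine receptor subunit gene nAChRalpha4 (14.0), Lasp of the actin cytoskeleton, which shares its span with CG43954 (12.1), and lt, a gene of vesicle trafficking to the lysosome (13.5). The peak in the RNA-binding protein gene shep had 627 fragments over a background of 82.4, a fold of 7.53. That in tio, a zinc-finger gene, had 1128 fragments over 256.6, a fold of 4.38. CG10395 (12.5), CG13954 (6.67) and CG9813 (12.0) held further peaks. Outside protein-coding genes, the nearest gene end belonged to CG41128 at 1.42 kb (fold 16.9), to CG9380 at 5.53 kb (13.0), to IntS3, an Integrator subunit gene, at 18.5 kb (9.58) and to CG9582 at 4.73 kb (11.3). Of the 20, those at CG9380, IntS3 and CG9813 were fully bracketed.

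**Figure D2:**
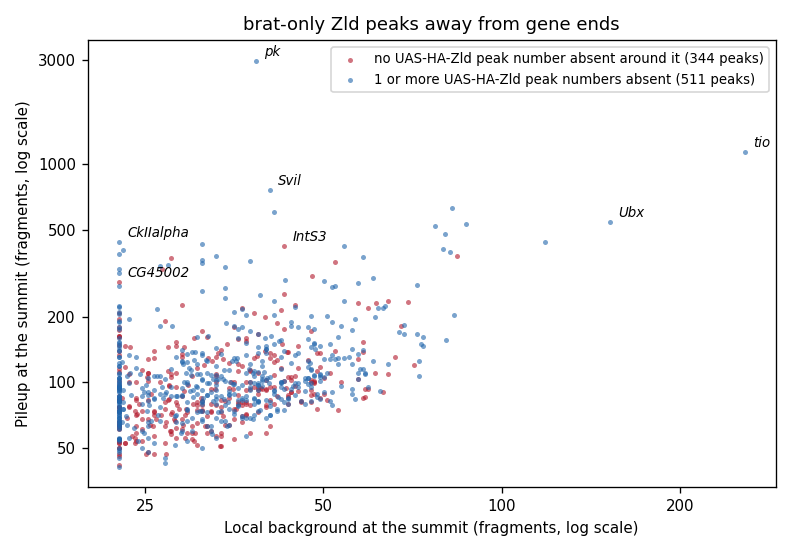
Fragments at the summit (vertical axis, log scale) against local background (horizontal axis, fragments, log scale) for the 855 brat-only peaks away from gene ends, each point 1 peak, coloured by whether a UAS-HA-Zld peak number is absent around it. The peak in pk stands alone with 2968 fragments, those in tio and Ubx have the highest backgrounds, and many peaks lie at the lowest background of 22.6 fragments; IntS3 names the gene with the nearest end.

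Taken on their own, the fully bracketed peaks had a lower ceiling. The 20 strongest of them, a set chosen after the absent numbers were seen, had 161 to 420 summit fragments and folds of 4.47 to 13.0. Besides the 3 above, 10 of them lay inside genes. CG45002 on the X held the next (X, 16987809 to 16988377), with 288 fragments over 22.6, a fold of 12.2, at 19.0 kb from any UAS-HA-Zld peak. The receptor tyrosine phosphatase gene Lar, which acts in axon guidance, held one with 227 fragments (fold 7.64, 2L, 19590454 to 19591109). Dscam3, of the Dscam family of neuronal adhesion molecules, held one with 254 fragments (fold 5.80, 3R, 17502526 to 17502983).

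The other 7 were spread over unrelated roles. They lay in ash2, a member of histone H3 methyltransferase complexes (fold 6.28), CAP, a vinculin-binding protein gene (4.47), Pgant9, an enzyme of O-glycosylation (8.82), c(2)M of the synaptonemal complex (5.84), the phosphodiesterase gene Pde11 (164 fragments over 22.6), CG1902 (5.32) and Pzl, a Piezo-like channel gene (6.87). The peak in Pgant9 lay 266 bp from a UAS-HA-Zld peak, and that in Pzl 200.8 kb from one. The 7 outside genes had folds of 4.96 to 8.31 and lay nearest to CG17571, Pld, l(3)80Fj, CG3635, RluA-1, Osi21 and, once more, CG9380.

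Most members lay inside genes, as the other peaks away from gene ends did. The midpoint was inside an annotated gene for 627 of 855, which is 73.3% (interval 70.3 to 76.2), and for 74.1% of the fully bracketed ones (69.2 to 78.5). The share was 73.7% for shared peaks away from gene ends (72.2 to 75.1). It was 63.9% for UAS-HA-Zld-only peaks away from gene ends (61.9 to 65.8), an interval that does not meet that of the 855. The median distance to the nearest gene end was 3405.5 bp (quartiles 1415 and 8365). Beyond 20 kb from every gene end lay 59 peaks, and beyond 50 kb lay 4. The gene table gives no strand, exon or intron, so the 2 ends of a gene were treated alike.

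Peaks of both lists were often close by. The nearest UAS-HA-Zld peak lay a median of 3022 bp away (quartiles 857.5 and 10836.5), within 1 kb for 244 peaks (28.5%) and within 200 bp for 4. For the fully bracketed peaks the median was 2274.5 bp and 30.8% lay within 1 kb. A shared peak of the brat list lay within 5 kb of 454 of the 855, which is 53.1% (interval 49.8 to 56.4), whereas 75.9% of shared peaks away from gene ends had another shared peak so near (74.5 to 77.4). The 53 peaks over 50 kb from any shared peak had a median fold of 3.09, and the 226 within 1 kb of a shared peak had 2.88.

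With all arms pooled, the stretch next to the centromeres held a larger part of the brat-only peaks away from gene ends than of the shared or UAS-HA-Zld-only peaks at like places. At gene ends the brat-only share was also the highest, but less clearly so. In the 10% of each arm next to the centromere, measured over the annotated genes, lay 45 of 855 (5.26%, interval 3.96 to 6.97), and 28 of the 755 brat-only peaks at gene ends (3.71%, 2.58 to 5.31), so the intervals of both brat-only classes overlap. At gene ends it held 2.18% of shared peaks (1.68 to 2.83) and 0.459% of UAS-HA-Zld-only ones (0.156 to 1.34). The interval of the brat-only peaks at gene ends overlaps that of the shared ones there and holds the 2.88% of annotated genes. The same stretch held 34 of 3374 shared peaks away from gene ends (1.01%, 0.722 to 1.40), 18 of 2315 UAS-HA-Zld-only ones (0.777%, 0.492 to 1.23) and 506 annotated genes (2.88%). For the fully bracketed peaks it was 17 of 344 (4.94%, 3.11 to 7.77). Turned round, 57.0% of the brat peaks away from gene ends in that stretch were brat-only (46.0 to 67.3), and 15.2% to 24.6% in each further 10% of the arms. With the fully bracketed peaks set against shared ones alone, that share was 33.3% next to the centromere (22.0 to 47.0) and 6.96% to 12.9% elsewhere. Both lists together have few peaks there, 121 of 8977 in UAS-HA-Zld and 162 of 7507 in brat. The arms did not contribute alike. Most of the 45 lay on 2L and, after it, 3L, and most of the 17 fully bracketed ones on 2L. The pattern is therefore not shown for each arm.

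Genes of pericentric heterochromatin were among the hosts. The 45 peaks had a median fold of 3.73, against 2.73 for the 810 elsewhere. Their summits held a median of 98 fragments, against 95 elsewhere, so the higher fold does not stand for larger pileups. Of the 45, the strongest by fold was the one in lt. In the ribosomal protein gene RpL5 lay 2 fully bracketed peaks with folds of 3.22 and 2.80. Marf1 held 2 more fully bracketed ones with folds of 4.86 and 3.19, and step, an Arf exchange factor gene, 2 with folds of 5.94 and 2.33. Beside RpL15, 5 peaks stood within 8.90 kb (3L, 27261868 to 27270765) with folds of 1.81 to 5.60, none of them fully bracketed.

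**Figure D3:**
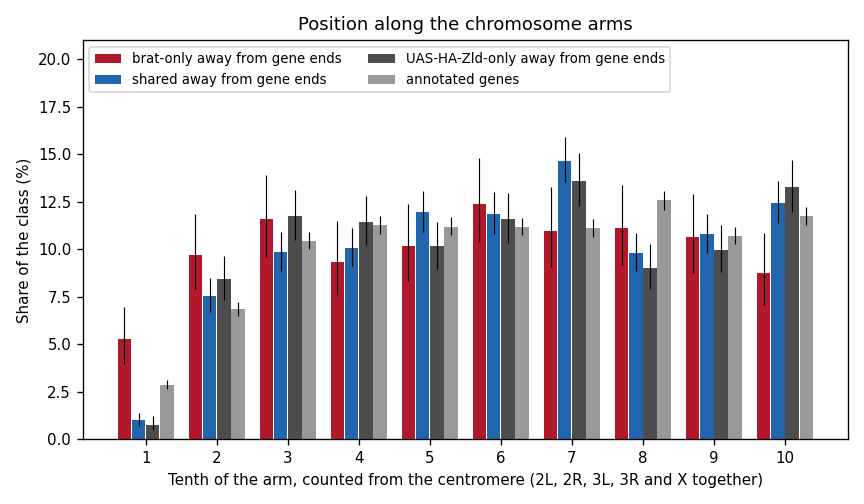
Share of each class (vertical axis, percent) in steps of 10% of the chromosome arms counted from the centromere (horizontal axis), for brat-only, shared and UAS-HA-Zld-only peaks away from gene ends and for annotated genes; bars are shares and lines Wilson 95% intervals. The arms are pooled. In the step next to the centromere the brat-only bar stands at 5.26%, against 1.01% for shared and 0.777% for UAS-HA-Zld-only peaks.

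Across arms the peaks were spread much as the brat list was, with a somewhat lower share on the X. Arm 3L held 208 (24.3%), 3R 180, 2R 179, and 2L and X 144 each. The X share was 16.8% (14.5 to 19.5), against 21.1% of shared peaks away from gene ends (19.8 to 22.5), and these intervals do not meet. The X share of all brat peaks was 19.75% (18.9 to 20.7). For the fully bracketed peaks it was 17.4% (13.8 to 21.8), an interval that meets that of the shared peaks.

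The peaks inside protein-coding genes were spread over 481 genes, 3.48% of the 13831 on these arms, and 368 of the 481 held 1 each. Counting fully bracketed peaks alone, 213 genes held one (1.54%). With 2 kb on either side added to each gene, 699 genes held or neighboured one (5.05%). Shared peaks away from gene ends lay in 7.92% of the genes and UAS-HA-Zld-only ones in 5.25%. Of the 481 genes, 312 (64.9%) also held a shared peak at any distance from gene ends, as 19.1% of all protein-coding genes did. A UAS-HA-Zld-only peak away from gene ends lay in 153 (31.8%), against 5.25% of all genes and 29.9% of all genes of 20 to 50 kb. The hosts had a median length of 26.2 kb, against 2.15 kb for all genes. Both comparisons with all genes leave this difference in length out. The 153 are 21.1% of the 726 genes with such UAS-HA-Zld-only peaks. The remaining 169 genes held no shared peak.

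Long genes made up most of the hosts. The median length was 26.2 kb for genes holding a brat-only peak away from gene ends, against 20.2 kb for genes with a UAS-HA-Zld-only one, 16.6 kb for genes with a shared one and 2.15 kb for all protein-coding genes. Such a peak lay in 0.509% of genes under 5 kb, 6.21% of those of 5 to 20 kb, 20.4% at 20 to 50 kb, 41.3% at 50 to 100 kb and 54.2% of the 83 genes of 100 kb or more. A gene under 1 kb cannot hold one by the rule, and a long gene offers more room. The overlaps above and the counts for single genes and gene lists below are therefore to be read beside gene length and these shares.

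**Figure D4:**
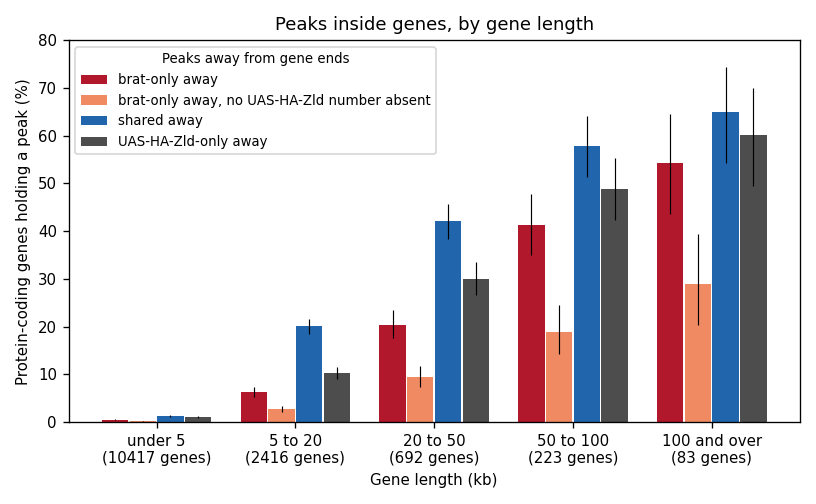
Share of protein-coding genes holding a peak away from gene ends (vertical axis, percent) by gene length (horizontal axis), for brat-only, fully bracketed brat-only, shared and UAS-HA-Zld-only peaks; lines are Wilson 95% intervals. For brat-only peaks the share goes from 0.509% under 5 kb to 54.2% at 100 kb or more, and all 4 classes climb with length.

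In 13 genes there were 4 or more brat-only peaks away from gene ends. The gene mam, which encodes the Notch coactivator Mastermind, held 6, and all 6 were fully bracketed. Their folds were 2.08 to 2.43, with 53 to 113 summit fragments, and 5 of them stood within 13.2 kb (2R, 14015085 to 14028333). The same gene held 15 shared and 2 UAS-HA-Zld-only peaks, so the 6 were weak sites among many shared ones. The gene pum encodes the RNA-binding repressor Pumilio, which is known to act with Brat on embryonic hunchback mRNA. It held 5, all fully bracketed, beside 9 shared and 3 UAS-HA-Zld-only peaks, and the strongest had a fold of 3.56.

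The other genes with many such peaks were mixed in how well they were bracketed. Tet, a dioxygenase gene, held 6 (3 fully bracketed), the teneurin gene Ten-a of synaptic adhesion 5 (1), and d4, a PHD-finger gene, 5 (0). CG1677 and CG3655, both on the X, held 4 each, all fully bracketed. The zinc-finger gene mamo held 4 (2), heca 4 (2), the histone methyltransferase gene gpp 4 (2), sm 4 (1), dally, a co-receptor for morphogens, 4 (1), and the acetyltransferase gene chm 4 (1). The 4 in chm stood within 4.02 kb of a gene of 10.3 kb (2L, 7415340 to 7419357), with folds of 1.97 to 2.38. Of the 13, d4, gpp and chm held no UAS-HA-Zld-only peak away from gene ends.

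Among the 260 genes of 19 lists, 58 held a brat-only peak away from gene ends (22.3%) and 27 a fully bracketed one (10.4%). Their median length of 15.5 kb is far above that of all genes. The lists were drawn up with earlier results of these data known, and their counts are descriptions with no test. The fold in brackets is that of the gene's strongest such peak by −log10 q. Of 15 type II neuroblast and stem cell genes (median length 14.8 kb), 3 held one, which is 20%, against 6.21% of all genes of 5 to 20 kb. The 3 were grh, a pioneer factor gene, with 2 (strongest fold 3.97, an absent number at both), the receptor gene N (2.36, fully bracketed) and pnt (2.08, an absent number). They are longer than the list's median, at 41.69, 37.35 and 55.94 kb. Of all genes of 20 to 50 kb 20.4% held one, and 41.3% at 50 to 100 kb. UAS-HA-Zld-only peaks away from gene ends lay in 9 of the 15. Of all protein-coding genes, such UAS-HA-Zld-only peaks lay in 1.075% under 5 kb, 10.3% at 5 to 20 kb and 29.9% at 20 to 50 kb. They lay in 48.9% at 50 to 100 kb and 60.2% at 100 kb or more. The UAS-HA-Zld-only counts of all lists here are to be read beside these shares. Of 9 intermediate progenitor genes on these arms (median length 19.5 kb), 0 held a brat-only peak away from gene ends and 7 a UAS-HA-Zld-only one. With 2 kb on either side counted, 1 of the 9 had a brat-only peak.

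Of 13 temporal patterning genes, which set the age of neuroblasts, 5 held one: mamo with 4 peaks (5.26), Eip93F with 2 peaks (3.08), Syp (3.06), br (3.21) and svp (1.58). That is 38.5%, for a list with a median length of 44.1 kb, and 20.4% of all genes of 20 to 50 kb held one. All hosts but svp are longer than 50 kb, and 41.3% of all genes of 50 to 100 kb and 54.2% of longer ones held one. A UAS-HA-Zld-only peak lay in 10 of the 13. Of 15 Notch pathway genes (median length 19.1 kb), 5 held one (33.3%): mam, numb (2.45), kuz, the protease that cleaves Notch (1.97), N, and the ligand gene Ser (1.96). All but Ser had a fully bracketed peak. The hosts are all longer than 20 kb, where 20.4% of all genes up to 50 kb and 41.3% of those of 50 to 100 kb held one. In the same list 7 genes held a UAS-HA-Zld-only peak.

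Of 24 axon guidance and adhesion genes, 11 held such a peak (45.8%) and 9 a fully bracketed one. Their median length was 51.3 kb, and 41.3% of all genes of 50 to 100 kb held such a peak. The strongest lay in the guidance cue gene Sema2a (8.17, an absent number), followed by Ten-a (8.94), Lar and Dscam3. UAS-HA-Zld-only peaks lay in 17 of the 24. Ion channel and synapse genes were 1 of 2 lists with more brat-only than UAS-HA-Zld-only hosts away from gene ends, 8 against 4 of 23. With fully bracketed peaks alone it was 3 against 4, and among the 8, ChAT and VAChT share the same peaks. A UAS-HA-Zld-only peak away from gene ends lay in 29.9% of all genes of 20 to 50 kb. The 8 are 34.8% of a list with a median length of 37.8 kb, and 20.4% of all genes of 20 to 50 kb held a brat-only one. The hosts cac, nAChRalpha1, nAChRalpha5 and nAChRalpha6 are longer, at 53.8 to 92.9 kb, beside the 41.3% of all genes of 50 to 100 kb. The other hosts have 13.4 to 43.8 kb. The other list with more brat-only than UAS-HA-Zld-only hosts was that of pericentric genes.

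The 8 channel and synapse genes included ChAT and VAChT, which overlap and share 2 fully bracketed peaks (strongest fold 3.66), the receptor subunit genes nAChRalpha6 with 3 (4.44), nAChRalpha1 (4.47) and nAChRalpha5 (2.99). The others were the calcium channel gene cac (3.93), Rim (1.97) and Gad1 (1.71). ChAT, VAChT and nAChRalpha1 were the 3 with a fully bracketed peak. Of 9 neuronal factor genes (median length 14.0 kb), fne held one (3.22). That is 11.1%, beside 6.21% of all genes of 5 to 20 kb. The gene fne itself has 32.9 kb, and 20.4% of all genes of 20 to 50 kb held one.

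Of all genes of 100 kb or more, 54.2% held a brat-only peak away from gene ends. RNA-binding protein genes, with a median length of 113 kb, had 7 hosts of 15 (46.7%). Besides shep and pum these were sm (4.49), heph with 3 peaks (4.32), mub (3.31), Rbfox1 (2.11) and msi (1.85), and 8 of the 15 held a UAS-HA-Zld-only peak. Of 13 pericentric genes (median length 49.1 kb), 5 held a brat-only peak away from gene ends (38.5%), lt, Snap25 (4.11), Nipped-A (3.52), RpL5 and Dbp80 (2.37), and 0 held a UAS-HA-Zld-only one. Only RpL5 of these was fully bracketed. Of all genes, 20.4% at 20 to 50 kb and 41.3% at 50 to 100 kb held a brat-only peak away from gene ends.

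Hox, growth and signalling lists gave a few hosts each, mostly with absent numbers. The Hox genes with one were Ubx (3.54), Abd-B (2.53) and Antp (2.46), 3 of 8 (37.5%), and 0 of them was fully bracketed. The median length of that list was 30.6 kb, and 20.4% of all genes of 20 to 50 kb held one. Of the hosts, Abd-B has 45.0 kb, but Ubx has 77.8 kb and Antp 103 kb. At 50 to 100 kb 41.3% of all genes held one, and at 100 kb or more 54.2%. Among growth and insulin signalling genes, Myc (3.31) and InR (2.39) held one, both with an absent number. Of 15 EGF receptor and MAP kinase genes (median length 21.5 kb), 4 held one (26.7%, beside the same 20.4%). These were Egfr (3.58), aos (4.16), Src42A (2.05) and pnt, with aos and Src42A fully bracketed.

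Several lists hold mostly short genes. Of 26 early embryonic Zld targets (median length 2.68 kb), vnd (3.51) and sog (2.95) held a brat-only peak away from gene ends, both with an absent number, against 7 with a UAS-HA-Zld-only one. Of 17 cell cycle genes (2.88 kb), E2f1 held one (3.47, fully bracketed), and of 21 chromatin regulators (12.2 kb) Nipped-A did, against 5 and 7 with a UAS-HA-Zld-only one. Of 11 glial genes (5.83 kb), nrv2 (4.78) and pnt held one, both with an absent number. These shares were 7.69% of the early targets, 5.88% of the cell cycle genes, 4.76% of the chromatin regulators and 18.2% of the glial genes. Each was above the 3.48% of all genes, but the chromatin regulators lay below the 6.21% of all genes of 5 to 20 kb. Every host named for these lists is longer than its list's median. The lists of other cell types gave 0 of 9 muscle genes, 0 of 7 fat body genes and 1 of 6 tracheal genes (16.7%), dysf (2.43).

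**Figure D5:**
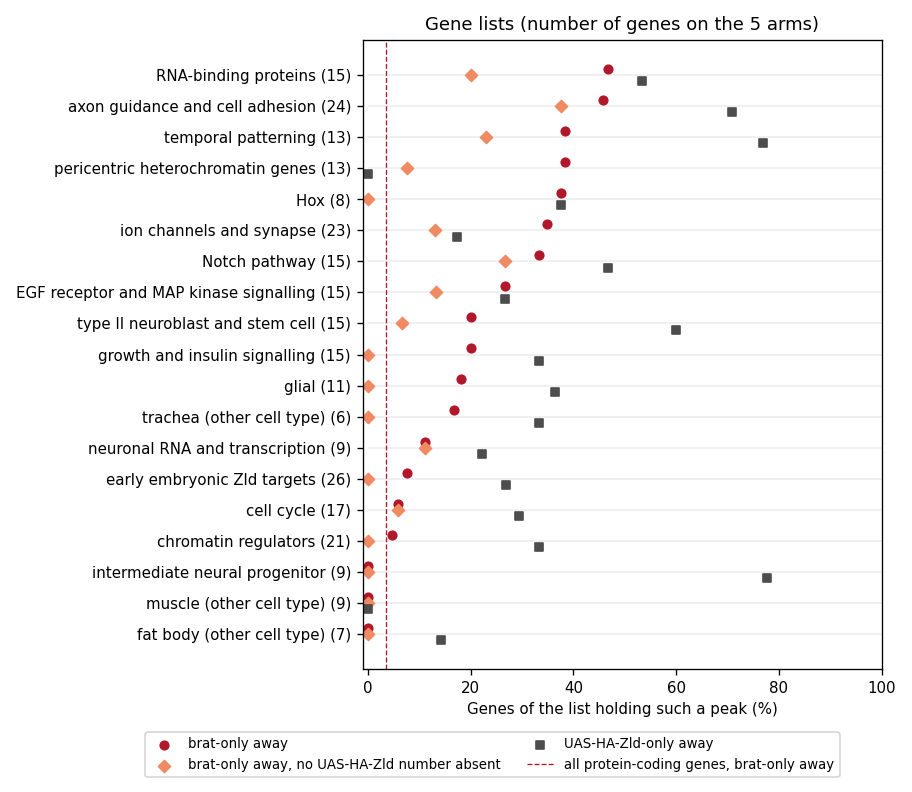
Share of the genes of each list holding a peak away from gene ends (horizontal axis, percent), for brat-only, fully bracketed brat-only and UAS-HA-Zld-only peaks, with the number of genes in brackets; the dashed line is the 3.48% of all protein-coding genes. RNA-binding protein genes have the highest brat-only share with 7 of 15 (46.7%). Their median length is 113 kb, and the brat-only share of all genes of 100 kb or more is 54.2%. Intermediate progenitor genes (median length 19.5 kb) have 0 of 9 against 7 of 9 for UAS-HA-Zld-only peaks. Of all genes of 5 to 20 kb, 6.21% hold a brat-only and 10.3% a UAS-HA-Zld-only peak away from gene ends. At 20 to 50 kb these shares are 20.4% and 29.9%.

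At the edge of the 500 bp limit, the nearest peaks beyond it lay at 500.5 bp near Hsp22 (fold 1.78), 501 bp near foxo (4.47) and 502.5 bp in lt (13.5). Those just within it lay at 498 bp at CHES-1-like (4.08), 496 bp at ken (1.73) and 494 bp at drn (3.66). By the matching rule, the closest unmatched peaks lay 68 bp from a UAS-HA-Zld peak near gukh (2.20), 75 bp near Su(Tpl) (2.29) and 135 bp near Rsph3 (2.60). Among the peaks counted as shared, those with the smallest overlap for their width shared 47 bp near Mur2B (1.58), 234 bp near MED21 (8.27) and 39 bp near Or67d (1.77).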

How the data were processed

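The authors' deposited lists, 1 per condition, are in the narrowPeak layout on build dm6. The submitters' processing notes name MACS2, Bowtie2 and deepTools 3.5.1. Pooling of replicates, the control and any later filter are not stated in the sources at hand. Each deposited row holds an integer score, the fold enrichment (a ratio), a p-value and a q-value as −log10, and a summit position. All are the authors' values and describe or rank peaks within their own list only.

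A peak was 1 distinct interval with its summit of highest −log10 q, and 1 shared base made 2 peaks match. Pileup and background were solved from fold and −log10 p, taking the Poisson tail that MACS2 uses. This gave whole pileups for 100% of peaks (relative tolerance 0.0001), with a lowest background of 28.8 fragments in UAS-HA-Zld and 22.6 in brat. Depth per sample is unknown. The matching, the counting of absent numbers and the solver were tested on simulated data.

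Genes came from a RefSeq table of the Release 6 assembly (17673 genes on 6 arms) without strand. Gene lists were looked up by symbol, 7 through a synonym, and a listed gene is not reported here. Shares carry Wilson 95% intervals. The members and lists were chosen with earlier results of these data known. Named are the 20 strongest peaks, the genes with most peaks and list members by strength. Where more than 4 members of a list are named, the rest were added after their values were seen. A planned count of motifs and the printing of sequences were left out, as no genome sequence was used here. Alternatives changed the thresholds, the matching, the distance to gene ends and the treatment of absent numbers. Python 3.11.15, NumPy 2.4.6, pandas 2.3.3, SciPy 1.17.1 and matplotlib 3.10.9 were used.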

Additional observations from a re-analysis of the deposited data

How the results depend on the processing

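No paired analysis was possible because each condition has 1 list. The 855 peaks became 344 when only fully bracketed ones were kept, and the genes holding one went to 213 in place of 481. Their median fold was then 2.60, their median width 367 bp, and 58.1% lay within 5 kb of a shared peak. With −log10 q of at least 5 the median fold was 2.97, and with at least 10 it was 3.31 and the median width 421 bp, as weaker peaks were left out. Asking for no UAS-HA-Zld peak within 1 kb left 36.5% within 5 kb of a shared peak. Counting a peak as shared only when at least 50% of it was covered gave a median fold of 2.95, a width of 423 bp and 60.8% within 5 kb. A limit of 250 bp from gene ends gave a median width of 401 bp, and one of 2 kb left 557 peaks, 78.1% of them inside genes. The cause of these shifts was not tested except where the setting itself removes peaks. All other values of the 7 results stayed within 1.5 times for counts or within the 95% interval for shares and medians. That holds also when peaks with a local background over 4 times the lowest were left out, an alternative added after the data were seen. Counting 2 kb beside each gene gave 68 list genes holding a peak in place of 58. Motif windows were not run. The list threshold limits what could be seen: no signal below it is in the files, so a brat-only peak may have had a weaker signal in UAS-HA-Zld.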

Other observations

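Some brat-only peaks away from gene ends came in tight groups. Another such peak lay within 5 kb of 189 of the 855. Hsp83, the gene of the Hsp90 chaperone, held 3 in a gene of 4.09 kb (3L, 3192892 to 3196677), with 271, 121 and 105 summit fragments and folds of 7.73, 2.14 and 2.23. Around all of them 3 UAS-HA-Zld numbers are absent, and the gene held no shared peak. Set1, a histone H3 methyltransferase gene, held 3 within 1.99 kb with 99 to 159 fragments and folds of 3.36 to 6.78, with 1 number absent. In CG14441 on the X, 3 fully bracketed peaks stood within 7.48 kb with folds of 2.29 to 4.79.

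A local background over 4 times the lowest was found for 3 of the 855 (0.351%), against 435 of all 7507 brat peaks (5.79%). These were the peaks in tio, at 11.4 times, in Ubx, at 6.75 times with 542 fragments over 152.4, and in Elp6, at 5.24 times with 438 fragments over 118.3. All 3 had an absent UAS-HA-Zld number.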
